A study of Mus musculus with 6 samples.

Results

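Expression of the matrix metalloproteinases (MMPs), the ADAMTS proteases and the tissue inhibitors of metalloproteinases (TIMPs) was compared between stria vascularis of Slc26a4-/- mice and of Slc26a4+/+ mice. This tissue lines part of the lateral wall of the cochlea and supplies endolymph with K+. Members were all probe sets whose gene symbol begins with Mmp, Adamts or Timp followed by a digit. These were 70 of 45037 probe sets and 37 of 18193 genes, namely 18 Mmp, 15 Adamts and 4 Timp genes. Slc26a4-/- mice lack pendrin, an anion exchanger whose loss in humans causes Pendred syndrome, and Slc26a4+/+ mice are wild type. All were adult mice of the strain 129S6, and no other allele or agent is named for either genotype. Each genotype was represented by 3 Affymetrix gene chips, and each chip held RNA pooled from 2 animals whose blood had not been flushed out. In such tissue RNA, a change in the number of cells of a type and a change in the RNA per cell cannot be told apart.

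MMPs are zinc-dependent enzymes that are made as inactive proforms and cut collagens, laminins and other proteins around cells. ADAMTS proteases are secreted relatives with thrombospondin repeats, and several of them cleave the proteoglycans aggrecan and versican. TIMPs bind the active site of MMPs and block it. MT1-MMP, the product of Mmp14, is anchored in the cell membrane and, with TIMP-2 as a bridge, binds and activates pro-MMP-2 there.

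Values are the scaled signals of the chips, intensities on a linear scale. The mean over all probe sets lay between 664 and 668 on Slc26a4-/- arrays and between 662 and 720.0 on Slc26a4+/+ arrays. Background was taken on each array as the 95th percentile of 44 probe sets for olfactory receptors, and lay between 187 and 214 on Slc26a4-/- arrays and reached up to 319 on Slc26a4+/+ arrays. The targeted gene itself, Slc26a4, read 520.2, 717 and 618 in Slc26a4-/- against 1354, 1262 and 793 in Slc26a4+/+. The position of that probe set relative to the disrupted sequence is not stated, so these values do not check the labels. Sex-linked transcripts differed between the genotypes. Xist, the RNA of the inactive X chromosome, lay between 5529.6 and 5863 in Slc26a4-/- and between 771 and 3358 in Slc26a4+/+, while the Y-linked Eif2s3y lay between 3.1 and 3.6 in Slc26a4-/- and between 639.9 and 1541 in Slc26a4+/+. Y-linked RNA was thus found in every Slc26a4+/+ pool and at no more than 3.6 in Slc26a4-/- pools, so the presence of males and the genotype cannot be told apart. For the members that passed and for Timp1, values with the Xist signal as a covariate are given as well. The Xist ranges of the genotypes do not meet, so such a fit can hardly separate Xist from genotype. With it the standard error of the log2 fold change grew from 0.13 to 0.26 for Timp2 1460287_at. It grew from 0.14 to 0.26 for Mmp2 1416136_at and from 0.29 to 0.56 for Adamts1. Of all probe sets 27 passed with the covariate, against 778 without it. Not passing with Xist as a covariate therefore does not tell sex from genotype, and the part of sex was not tested. The ratio of 3′ to 5′ Gapdh signal, which is higher in degraded RNA, was 3.7, 3.8 and 3.34 in Slc26a4-/- replicates 1, 2 and 3 and 2.25, 7.19 and 10.5 in Slc26a4+/+ replicates 1, 2 and 3. The tissue label was checked against markers of the strial cell types. Above background on at least 2 arrays were all 6 marginal cell markers and all 4 basal cell markers in each genotype. Of 7 intermediate cell markers 6 were in Slc26a4-/- and 4 in Slc26a4+/+, where Tyrp1 was below background on all arrays and Pmel above it on 1. Markers of fibrocytes and fibroblasts, cells of the adjacent spiral ligament, were found too, 10 of 10 in Slc26a4-/- and 8 of 10 in Slc26a4+/+. These counts rest on unequal cutoffs, since the background was 200, 269 and 319 on Slc26a4+/+ replicates 1, 2 and 3. Lum, which missed the rule in Slc26a4+/+, read 501, 224 and 271 there, above every Slc26a4-/- background.

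A gene was counted as above background where its brightest probe set exceeded the background on at least 2 of the 3 arrays of a genotype. This held for 9 of the 37 genes, Mmp2, Mmp14, Timp1, Timp2, Timp3, Adamts1, Adamts9, Adamts10 and Adamts12. The other 28 genes did not reach it. They were Mmp1a, Mmp1b, Mmp3, Mmp7, Mmp8, Mmp9, Mmp10, Mmp11, Mmp12, Mmp13, Mmp16, Mmp17, Mmp19, Mmp20, Mmp23, Mmp24, Timp4, Adamts3, Adamts4, Adamts5, Adamts6, Adamts7, Adamts8, Adamts15, Adamts16, Adamts18, Adamts19 and Adamts20. Counted by probe set, 52 of the 70 were below background, with signals from 1 to 276 in Slc26a4-/- and from 1.1 to 405 in Slc26a4+/+. RNA at such low levels was not detectable with these arrays, which is not the same as absent.

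**Figure D1:**
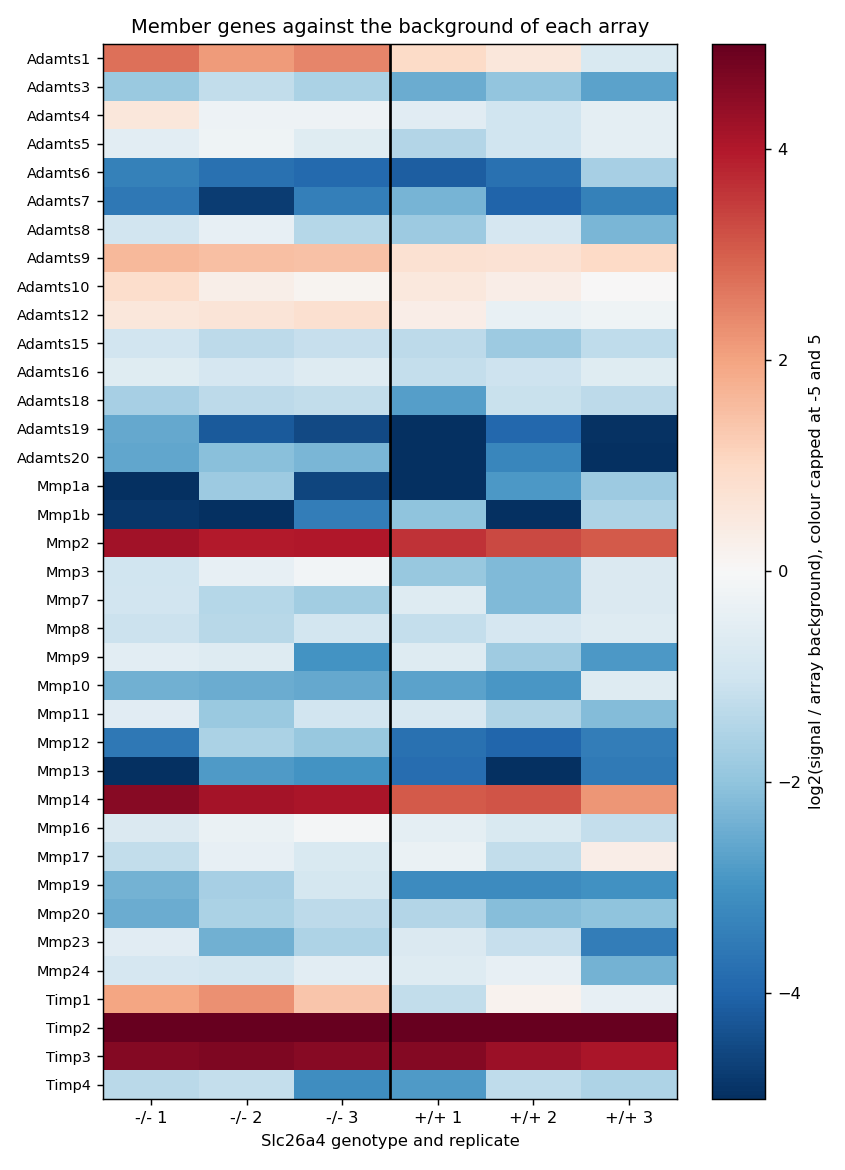
Rows are the 37 genes, each read by its brightest probe set, and columns are the 6 arrays, with Slc26a4-/- on the left. The colour gives log2 of the signal over the background of that array, and the 9 genes above background stand out from the other 28, in which single arrays exceed it for Adamts4 (1 Slc26a4-/- array) and Mmp17 (1 Slc26a4+/+ array).

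Among the 28 genes were all 9 measured genes of an MMP cluster on chromosome 9, which spans 7272514 to 7699585 in GRCm38.p6. The cluster encodes collagenases (Mmp1a, Mmp1b, Mmp8 and Mmp13), stromelysins (Mmp3 and Mmp10), matrilysin (Mmp7), the macrophage elastase (Mmp12) and the enamel protease Mmp20. Not 1 of their 9 probe sets exceeded the background on any array, with signals of 3.6 to 194 in Slc26a4-/- and 2.3 to 202 in Slc26a4+/+, and 0 had an unadjusted p under 0.05 by limma. Mmp12 read 15.5, 68.5 and 57.4 in Slc26a4-/- against 15.2, 17.4 and 29.3 in Slc26a4+/+. Mmp9, a gelatinase known from neutrophils and osteoclasts, read 129, 131 and 26.8 in Slc26a4-/- against 126, 78.9 and 43.3 in Slc26a4+/+ on its brighter probe set. Both stayed below background on every array. Of the neutrophil markers, S100a8, S100a9, Elane, Mpo and Ltf did so too, while Ngp read 151, 191 and 179 in Slc26a4-/- against 181, 209 and 386 in Slc26a4+/+ and was above background on 1 Slc26a4+/+ array.

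The AP-1 motif (TGANTCA, either strand), bound by Fos and Jun proteins, is known from promoters of this cluster, and the matches are shown because they set its genes apart from the other members with a promoter at hand. RefSeq promoters, 250 bases before to 50 bases after the start (GRCm38.p6), were matched for 23 of the 37 genes. The motif was found in 8 of these, against 7.81% of all 32851 promoters, and all 8 belong to the cluster. Each line gives 30 bases on the strand of the gene, 5′ to 3′, with the motif in capitals.
Mmp13 (chr9:7272467-7272496, plus strand): accccaaagtggTGACTCAtcactatcatg
Mmp12 (chr9:7347318-7347347, plus strand): tgacatcaacagTGAGTCAgatagaggatt
Mmp1b (chr9:7388102-7388131, minus strand): tgttacaaagccTGAGTCAtatagcctctg
Mmp3 (chr9:7445764-7445793, plus strand): tggaagcaattaTGAGTCAgttttcgggtg
Mmp1a (chr9:7464056-7464085, plus strand): tgttgtcaaccaTGAGTCAcatagcctctg
Mmp10 (chr9:7502267-7502296, plus strand): atagcacccatgTGAGTCAtgcttagtgac
Mmp20 (chr9:7628124-7628153, plus strand): ccatttgagacaTGAATCAtcacttacagg
Mmp7 (chr9:7692015-7692044, plus strand): aaagtgtgcaaaTGAGTCAcctatttccac
The motif lay between 95 and 29 bases before the start in each, and Mmp1a, Mmp1b, Mmp3, Mmp7, Mmp10 and Mmp12 had the same 7 letters, TGAGTCA. The ninth gene of the cluster, Mmp8, had no match in its window. A match is a description of letters and not a measured binding site.

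Of the 9 genes above background, 7 had a promoter in the table. The AP-1 motif was in 0 of these 7, and a GC box (GGGCGG, either strand), the binding sequence of Sp1, was in 6, namely Mmp14, Timp1, Timp2, Timp3, Adamts1 and Adamts9. Of the 16 promoters of genes below background 6 held a GC box, and of all promoters 35.7% did. The GC box was added to a search planned for AP-1, and a link of either motif to signal was not tested. The 250 bases before the start are given for the 4 genes with a promoter and the smallest unadjusted p between the genotypes, since the comparison turns on them. GC boxes are in capitals, as CCGCCC where they lie on the other strand.
Mmp14 (chr14:54431348-54431597, plus strand): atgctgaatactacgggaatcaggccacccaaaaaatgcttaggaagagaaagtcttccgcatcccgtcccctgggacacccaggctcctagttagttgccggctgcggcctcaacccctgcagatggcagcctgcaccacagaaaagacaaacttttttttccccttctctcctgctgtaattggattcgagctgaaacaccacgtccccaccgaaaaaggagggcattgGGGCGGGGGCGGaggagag
Adamts1 (chr16:85803114-85803363, minus strand): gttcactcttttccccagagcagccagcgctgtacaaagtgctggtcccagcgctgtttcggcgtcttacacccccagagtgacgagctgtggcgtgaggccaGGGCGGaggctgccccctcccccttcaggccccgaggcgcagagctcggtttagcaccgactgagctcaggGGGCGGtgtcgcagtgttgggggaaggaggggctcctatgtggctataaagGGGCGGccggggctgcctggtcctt
Timp1 (chrX:20869916-20870165, plus strand): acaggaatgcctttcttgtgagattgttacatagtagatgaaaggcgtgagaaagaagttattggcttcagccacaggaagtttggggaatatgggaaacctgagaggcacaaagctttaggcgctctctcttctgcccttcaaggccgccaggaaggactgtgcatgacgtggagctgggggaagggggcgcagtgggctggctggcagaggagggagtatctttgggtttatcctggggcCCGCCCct
Timp2 (chr11:118355412-118355661, minus strand): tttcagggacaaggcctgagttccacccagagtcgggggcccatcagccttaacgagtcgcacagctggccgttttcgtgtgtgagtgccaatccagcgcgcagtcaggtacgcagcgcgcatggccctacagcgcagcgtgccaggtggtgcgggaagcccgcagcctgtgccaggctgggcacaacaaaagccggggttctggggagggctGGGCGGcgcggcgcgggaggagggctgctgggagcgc
The Mmp14 promoter held 2 adjacent GC boxes, that of Adamts1 held 3, and those of Timp1 and Timp2 held 1 each. The share of G and C was 54.4% in Timp1, 55.2% in Mmp14, 65.6% in Adamts1 and 68% in Timp2.

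Between the genotypes, 4 of the 70 probe sets were higher in Slc26a4-/- and 0 were lower at an adjusted p under 0.05 by limma. They belonged to Mmp2, Mmp14, Adamts1 and Timp2 and made up 5.71% of the members, against 1.73% of all probe sets called either way, 1.19% called higher and 0.54% called lower. At an unadjusted p under 0.05, 12 members were higher and 2 lower, where 6.15% of all probe sets were higher and 5.77% lower. The arrays of the genotypes did not overlap for 13 members that were higher and 2 that were lower, against 8.46% and 9.4% of all probe sets. The median log2 fold change was 0.04 over the members and -0.06 over all probe sets. When each gene was read by its brightest probe set alone, 2 of the 37 genes passed, Mmp14 and Adamts1, against 2.68% of all genes. This is because the Mmp2 and Timp2 probe sets that passed were not the brightest of their gene.

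Markers of other cells differed on these arrays too, where 1.88% of all genes were higher and 0.803% lower by limma. Of 12 macrophage markers, 8 were higher and 0 lower, and their summed signal lay between 33272 and 35146 in Slc26a4-/-, against 6130.1 to 8256 in Slc26a4+/+. Itgam and Fcgr1 were below background on all arrays. Of 10 markers of fibrocytes and fibroblasts, 5 were higher and 0 lower, with a summed signal between 17236 and 18991 in Slc26a4-/-, against 10933 to 15894 in Slc26a4+/+. Otos, a gene of the adjacent spiral ligament, averaged 2368 in Slc26a4-/- against 636 in Slc26a4+/+ (adjusted p = 0.00276 by limma). Coch, Lum and Tbx18 of the same list did not pass, at log2 fold changes of 0.17, 0.21 and 0.27. Pdgfra and Pou3f4 had the opposite sign (-0.32 and -0.75) and did not pass either. The study's qRT-PCR found a small carry-over between stria vascularis and spiral ligament, larger in Slc26a4-/- than in heterozygous mice. Its part in these arrays was not tested. Of 7 intermediate cell markers, 2 were higher (Tyrp1 and Pmel) and 0 lower, with a summed signal between 48890.1 and 49841 in Slc26a4-/-, against 42058 to 50617 in Slc26a4+/+. Of 6 marginal cell markers, 0 were higher and 2 lower (Kcne1, log2 fold change -1.27, and Atp13a5, -1.21), and their summed signal lay between 28337 and 29801 in Slc26a4-/-, against 40979 to 50549.6 in Slc26a4+/+. Of 4 basal cell markers 0 passed (0 at an unadjusted p under 0.05). Of 8 markers of neutrophils and blood 0 passed, and Alas2, a heme synthesis enzyme of red cell precursors, read 155, 248 and 125 in Slc26a4-/- against 271, 390.2 and 669.5 in Slc26a4+/+ (log2 fold change -1.29, adjusted p = 0.154). The part of these cells in the values of the members was not tested.

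**Figure D2:**
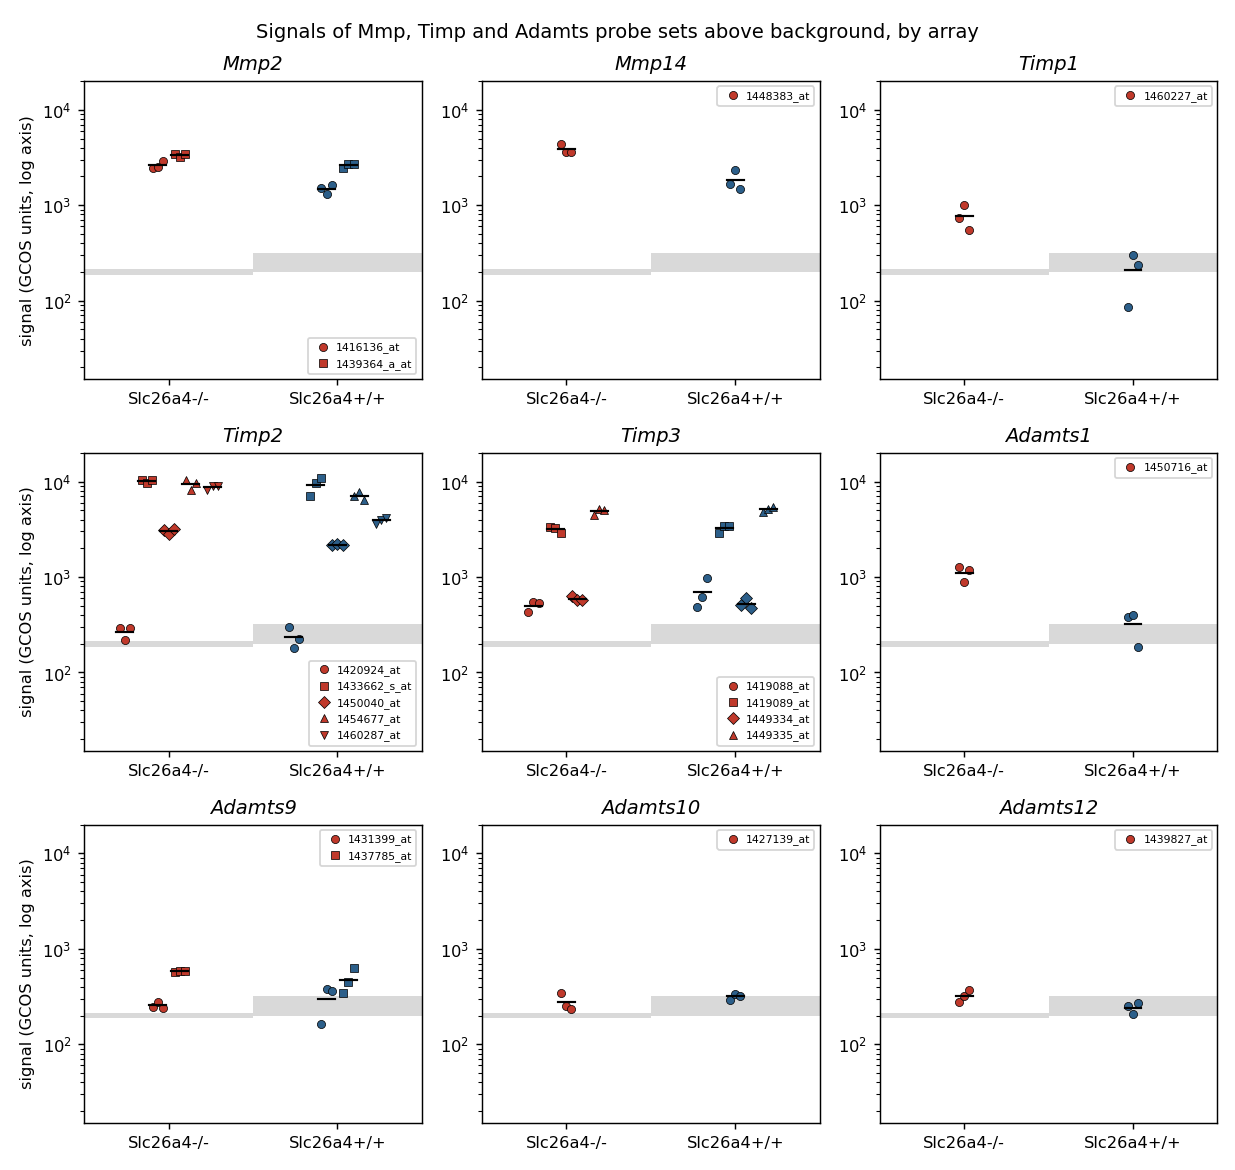
Panels are the 9 genes above background and points are arrays, with the signal on a log axis, Slc26a4-/- in red on the left and Slc26a4+/+ in blue on the right. Symbols tell probe sets of a gene apart, black lines are means of 3 arrays and grey bands give the range of the array backgrounds. The genotypes do not overlap for Mmp2, Mmp14, Timp1, Adamts1 and Adamts12, and they overlap on all 4 probe sets of Timp3.

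Mmp14, which encodes the membrane-anchored activator of pro-MMP-2, read 4339, 3614 and 3622 in Slc26a4-/- against 1684, 2358 and 1476 in Slc26a4+/+ on probe set 1448383_at. Every Slc26a4-/- array was above every Slc26a4+/+ array. The mean was 3858 ± 416 in Slc26a4-/- against 1839 ± 461 in Slc26a4+/+ (SD, n = 3 each), and the log2 fold change was 1.09 (SE 0.18) with an adjusted p of 0.0177 by limma. A dimmer probe set, 1416572_at, exceeded the background on 1 Slc26a4-/- array and did not pass (adjusted p = 0.153), and 1440920_at was below background throughout. Mmp14 did not pass with any 1 of the Slc26a4-/- arrays left out, at log2 fold changes of 1.00 to 1.14. With Xist as a covariate it was 0.53 (adjusted p = 0.753).

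Mmp2 encodes a gelatinase that cleaves denatured collagens and the type IV collagen of basement membranes, and it was measured by 2 probe sets. Signals on 1416136_at were 2449, 2522 and 2884 in Slc26a4-/- against 1505, 1301 and 1612 in Slc26a4+/+, without overlap. This gave a mean of 2618 ± 233 in Slc26a4-/- against 1472 ± 158 in Slc26a4+/+ (SD, n = 3 each). On the log2 scale the fold change was 0.83 (SE 0.14), with limma's adjusted p at 0.0196. Signals on 1439364_a_at were 3464, 3204 and 3470.0 in Slc26a4-/- against 2447, 2684 and 2699 in Slc26a4+/+. These did not overlap either, yet the log2 fold change of 0.37 (SE 0.13, 95% interval 0.09 to 0.65) did not pass (adjusted p = 0.244). Within an array, the log2 ratio of 1416136_at to 1439364_a_at was -0.37 ± 0.12 in Slc26a4-/- and -0.83 ± 0.19 in Slc26a4+/+ (SD, n = 3 each; exact permutation p = 0.1, two-sided). A p of 0.1 is the smallest that 3 against 3 arrays allow. It was reached in all 4 such pairs of probe sets compared (0.1 after adjustment). In each pair the first probe set was taken because it had passed, so the choice itself favoured a higher ratio in Slc26a4-/-. These p-values are therefore no independent support for a difference between probe sets. The change of 1416136_at did not pass when any 1 Slc26a4-/- array or Slc26a4+/+ replicate 2 was left out, and its log2 fold change stayed between 0.75 and 0.9 as each of the 6 arrays was left out. With Xist as a covariate it was 1.08 and did not pass (adjusted p = 0.336).

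Timp2 encodes TIMP-2, the inhibitor that also bridges MT1-MMP and pro-MMP-2, and its 6 probe sets gave unequal changes. Signals on 1460287_at were 8127, 8988 and 8893 in Slc26a4-/- against 3586, 3986 and 4171 in Slc26a4+/+. All Slc26a4-/- arrays were above all Slc26a4+/+ arrays, with a mean of 8669.7 ± 472 in Slc26a4-/- against 3914 ± 299 in Slc26a4+/+ (SD, n = 3 each). On the log2 scale the fold change was 1.15 (SE 0.13), with limma's adjusted p at 0.00237. It passed with each of the 6 arrays left out in turn, at log2 fold changes of 1.09 to 1.2, but not with Xist as a covariate (1.07, adjusted p = 0.317). The other probe sets did not pass. Signals on 1450040_at were 3082, 2839 and 3205 in Slc26a4-/- against 2153, 2194 and 2156 in Slc26a4+/+, and those on 1454677_at were 10426, 8133 and 9731 in Slc26a4-/- against 7057, 7750.1 and 6403 in Slc26a4+/+. Neither overlapped between the genotypes, at log2 fold changes of 0.49 and 0.41 (adjusted p = 0.106 and 0.29). Signals on 1433662_s_at were 10452, 9582 and 10287 in Slc26a4-/- against 7061, 9769 and 11027 in Slc26a4+/+, with overlap and a log2 fold change of 0.15 (95% interval -0.25 to 0.54, adjusted p = 0.812). The sign of this last one turned without Slc26a4+/+ replicate 1 and with Xist as a covariate. 1420924_at lay near background (log2 fold change 0.20, SE 0.27) and 1437081_at below it on all arrays.

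Within arrays, the log2 ratio of the Timp2 probe sets 1460287_at to 1433662_s_at was -0.22 ± 0.14 in Slc26a4-/- and -1.22 ± 0.22 in Slc26a4+/+. This is a difference of 1.00, and the ratios to 1454677_at and 1450040_at differed by 0.74 and 0.66, with no overlap of arrays in any of the 3. Here too 1460287_at was set against the others because it had passed, which favours such differences. Which stretch of the transcript each probe set reads was not analysed here.

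Timp1, an X-linked inhibitor that many cells induce in response to cytokines, read 736, 1004 and 553 in Slc26a4-/- against 86.2, 303 and 237 in Slc26a4+/+. It was above background on 3 Slc26a4-/- arrays and 1 Slc26a4+/+ array, and the genotypes did not overlap. Its log2 fold change of 2.01 (SE 0.43) did not pass, with an adjusted p of 0.0515 by limma. It passed without Slc26a4+/+ replicate 1 (1.47, adjusted p = 0.0249), and with Xist as a covariate it was 0.69 (adjusted p = 0.864). Timp3, the inhibitor that is bound to the matrix, read 4452, 5147 and 5002 in Slc26a4-/- against 4833, 5169 and 5422 in Slc26a4+/+ on its brightest probe set. The genotypes overlapped, at a log2 fold change of -0.08 (95% interval -0.37 to 0.21, adjusted p = 0.864). The other 3 Timp3 probe sets had log2 fold changes of -0.42, -0.03 and 0.17, and they overlapped as well. Timp4 read 73.9, 89.8 and 24.8 in Slc26a4-/- against 28.3, 113 and 111 in Slc26a4+/+ on its brighter probe set and was below background on all arrays.

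**Figure D3:**
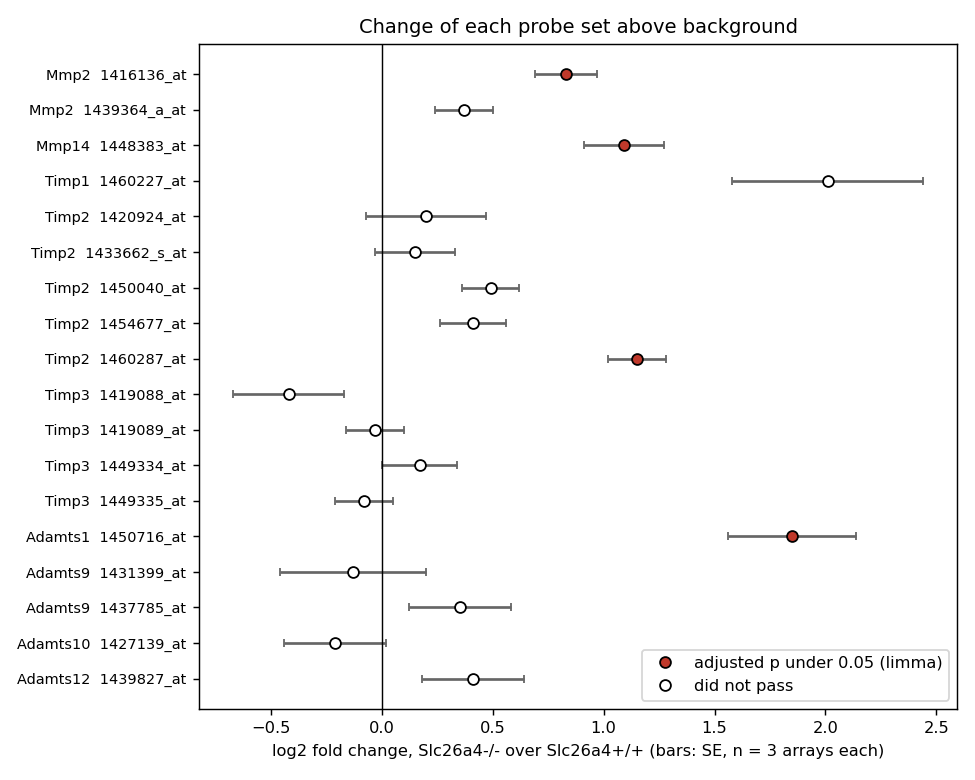
Points are the log2 fold changes (Slc26a4-/- over Slc26a4+/+) of the 18 member probe sets above background, with bars for the standard error (3 arrays each) and filled where the adjusted p was under 0.05 by limma. Timp2 probe sets spread from 0.15 to 1.15, both Mmp2 probe sets lie above 0, and Timp3 probe sets lie on either side of it.

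Adamts1 was the ADAMTS gene that passed. It encodes a secreted protease that cleaves versican and aggrecan. Its signals were 1275, 883 and 1174 in Slc26a4-/- against 385, 395 and 186 in Slc26a4+/+, where 2 of the 3 Slc26a4+/+ arrays were above background, and the genotypes did not overlap. The log2 fold change was 1.85 (SE 0.29) with an adjusted p of 0.0131 by limma. Without Slc26a4-/- replicate 1 or 3 it did not pass, and it ranged from 1.49 to 2.04 over the arrays left out. With Xist as a covariate it was 1.43 (adjusted p = 0.606).

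The other ADAMTS genes above background did not pass. Adamts9, a secreted versican-cleaving protease, read 578, 585 and 586 in Slc26a4-/- against 341, 447 and 632 in Slc26a4+/+ on its brightest probe set (log2 fold change 0.35, SE 0.23, adjusted p = 0.622). Another Adamts9 probe set, 1431399_at, above background on 5 arrays, had the opposite sign (-0.13, SE 0.33), and 1430352_at was below background. Adamts10, which binds fibrillin microfibrils, read 346, 253 and 232 in Slc26a4-/- against 288, 339 and 323 in Slc26a4+/+ (log2 fold change -0.21, 95% interval -0.74 to 0.31). Both overlapped between the genotypes. Adamts12 read 280.2, 318 and 369.7 in Slc26a4-/- against 249, 205 and 273 in Slc26a4+/+, without overlap but with a log2 fold change of 0.41 (95% interval -0.11 to 0.93, adjusted p = 0.55).

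The aggrecanases Adamts4 and Adamts5 did not reach the background rule. Adamts4 read 276, 172 and 181 in Slc26a4-/- against 134, 134 and 229 in Slc26a4+/+ on its brighter probe set, with 1 Slc26a4-/- array above background. Adamts5 read 131, 176 and 141 in Slc26a4-/- against 71.6, 135 and 229.6 in Slc26a4+/+ on the brightest of its 4 probe sets (log2 fold change 0.18, SE 0.44). The other 3, all below background, had log2 fold changes of 2.15, -0.63 and -1.06, so their signs differed, and none passed. The 2 members that were lower at an unadjusted p under 0.05 were dim as well. Adamts16 read 112, 107 and 31.4 in Slc26a4-/- against 159.8, 205 and 331 in Slc26a4+/+ on 1441841_at, above background on 1 Slc26a4+/+ array (adjusted p = 0.23). Mmp19 read 2, 2.9 and 1.4 in Slc26a4-/- against 5.5, 9.6 and 69.1 in Slc26a4+/+ on 1421977_at, below background throughout (adjusted p = 0.204), and its brighter probe set, which was below background too, had the opposite sign (log2 fold change 1.12, SE 0.60).

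Genes that activate, inhibit, bind or clear these or other proteases formed a list of 23 measured genes, chosen with earlier results of these data known. By limma 5 were higher and 1 lower in Slc26a4-/-, which is 26.1% against 2.68% of all genes (1.88% higher and 0.803% lower). Its median change was 0.39 on the log2 scale. With Xist as a covariate 0 of the 23 passed by limma (10 at an unadjusted p under 0.05). Pcolce, an enhancer of procollagen processing, averaged 6229.9 ± 290.1 in Slc26a4-/- against 2380.1 ± 662 in Slc26a4+/+ (SD, n = 3 each; log2 fold change 1.42). Cd44, a hyaluronan receptor, averaged 4737 ± 249 in Slc26a4-/- against 2558 ± 487 in Slc26a4+/+. Plat, the tissue plasminogen activator, averaged 2779.7 ± 633 in Slc26a4-/- against 1326 ± 234 in Slc26a4+/+. Lrp1, an endocytic receptor that clears proteases and their inhibitors, averaged 1823 ± 70.1 in Slc26a4-/- against 1162 ± 78.2 in Slc26a4+/+. These 4 rose, with adjusted p-values of 0.00529 for Pcolce, 0.0217 for Cd44, 0.0301 for Plat and 0.0434 for Lrp1. Lcn2, a lipocalin that forms a complex with MMP-9 in humans, read 595, 394 and 584 in Slc26a4-/- against 4.6, 6.2 and 19.5 in Slc26a4+/+. It was below background on all Slc26a4+/+ arrays and at least 2-fold higher in Slc26a4-/-, set against the background there (adjusted p = 0.00122). A2m, the broad protease inhibitor α2-macroglobulin, was the gene that fell. It read 93.8, 125 and 148 in Slc26a4-/- against 331, 344 and 310.2 in Slc26a4+/+, below background on all Slc26a4-/- arrays, and was at least 1.63-fold lower (adjusted p = 0.0307). Furin, a convertase that cleaves proMT1-MMP, had a log2 fold change of -0.14 (95% interval -0.56 to 0.27) and Reck, a membrane-bound MMP inhibitor, had 0.39 (95% interval -0.34 to 1.12). Plau and Plg, for urokinase and plasminogen, were below background on all arrays.

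Of 28 matrix genes whose products MMPs or ADAMTS proteases cleave or bind, 3 were higher and 0 lower by limma (10.7% against 2.68% of all genes). Their median log2 fold change was 0.31. With Xist as a covariate 0 of the 28 passed (5 unadjusted). Dcn, the proteoglycan decorin, averaged 3064 ± 373 in Slc26a4-/- against 1042 ± 198 in Slc26a4+/+ (SD, n = 3 each; adjusted p = 0.00184). The fibrillar collagen gene Col1a2 averaged 690.3 ± 13.7 in Slc26a4-/- against 339 ± 49.1 in Slc26a4+/+ (adjusted p = 0.0213). Col3a1 averaged 567 ± 106 in Slc26a4-/- against 158 ± 85.4 in Slc26a4+/+ (adjusted p = 0.0247) and was above background on 1 Slc26a4+/+ array. Col1a1 of the same list had the opposite sign, with overlap (log2 fold change -0.59, 95% interval -2.05 to 0.88). Dcn and Col1a2 are also among the fibrocyte and fibroblast markers counted above. Col4a1 and Col4a2, for type IV collagen, had log2 fold changes of 0.38 (95% interval -0.14 to 0.90) and 0.12 (95% interval -0.47 to 0.72). Vwf encodes von Willebrand factor, the substrate of ADAMTS13, whose gene is not among the members. Vwf read 695, 956 and 774 in Slc26a4-/- against 284, 498 and 471 in Slc26a4+/+, without overlap, and did not pass (adjusted p = 0.0902 by limma). Bcan, for brevican, read 339.5, 576 and 695 in Slc26a4-/- against 175, 244 and 293 in Slc26a4+/+ and did not pass either (adjusted p = 0.12). Acan, Vcan, Ncan and Hapln1, for aggrecan, versican, neurocan and a link protein, were below background on all arrays.

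ADAM proteases, ADAMTS-like proteins and related metalloproteases made a list of 42 measured genes, of which 28 were below background on all arrays. By limma 0 passed, against 2.68% of all genes, and the median log2 fold change was -0.12. At an unadjusted p under 0.05 there were 4, where 6.15% of all probe sets were higher and 5.77% lower. Mme, for the peptidase neprilysin, read 3208, 2621 and 3552 in Slc26a4-/- against 2720.2, 1290.5 and 1433 in Slc26a4+/+, with overlap (adjusted p = 0.184). Adam19 stayed below background on all arrays. Adamtsl4 read 709.7, 794 and 737 in Slc26a4-/- against 395, 580.1 and 572 in Slc26a4+/+, and Adam4 read 407, 480.4 and 499 in Slc26a4-/- against 579, 556 and 719 in Slc26a4+/+. Adam10, a sheddase of Notch and other surface proteins, read 7029, 6829 and 6737 in Slc26a4-/- against 6603, 5785 and 4032 in Slc26a4+/+. The last 3 did not overlap, and their adjusted p-values were 0.267, 0.414 and 0.499. Vessel cells can also express these genes. Of 6 pericyte markers 0 passed by limma (3 at an unadjusted p under 0.05), and their median log2 fold change was 0.8. Their summed signal lay between 7322 and 9158 in Slc26a4-/-, against 4224 to 7549 in Slc26a4+/+, and Anpep was below background on all arrays. Of 8 endothelial markers 0 passed (2 unadjusted), at a median log2 fold change of 0.42. Their summed signal lay between 3429 and 3877 in Slc26a4-/-, against 2435 to 3718 in Slc26a4+/+, and Pecam1 and Tie1 were below background on all arrays.

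**Figure D4:**
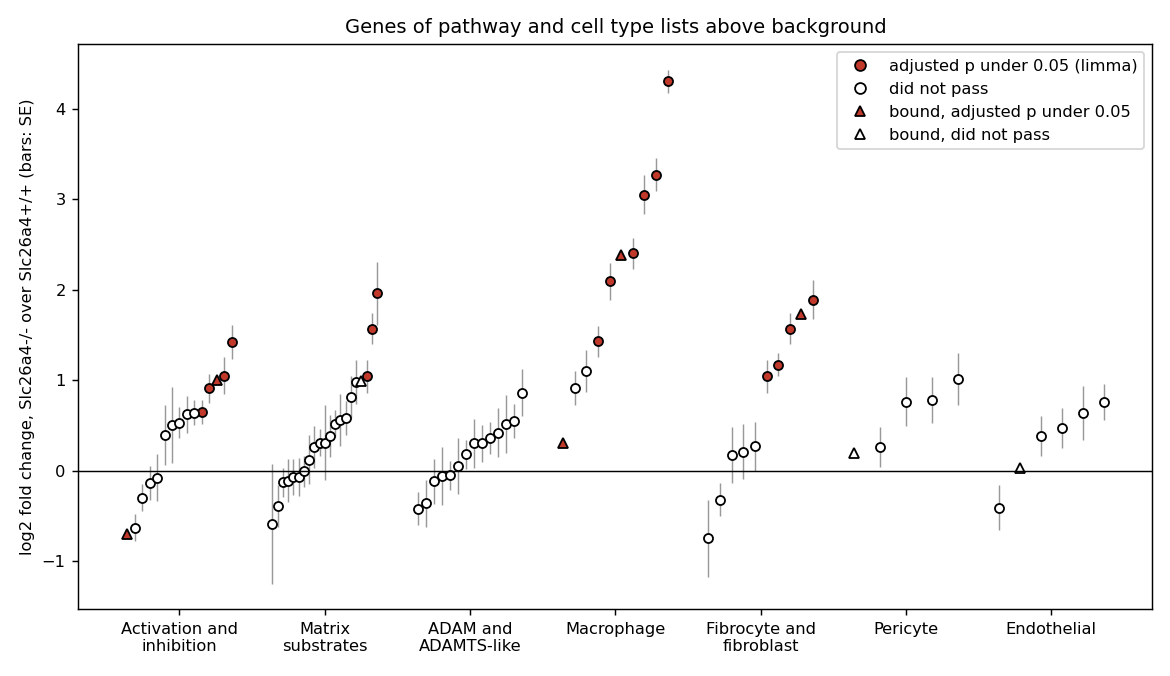
Points are genes above background, grouped by list along the x axis, and the y axis gives the log2 fold change (Slc26a4-/- over Slc26a4+/+) with bars for the standard error. Triangles are bounds for genes below background on all arrays of 1 genotype, and filled symbols had an adjusted p under 0.05 by limma. Tnc and Plaur, above background on 2 Slc26a4-/- arrays only, had no such bound and are not shown. Filled symbols are most frequent among the macrophage markers (8 of 12 measured), and 0 of the ADAM and ADAMTS-like genes are filled.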

How the data were processed

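RNA of stria vascularis was amplified in 2 rounds and hybridised to 3 Affymetrix mouse chips for each genotype. The authors deposited an intensity for every probe set of each array, made with GCOS per the submitters' processing notes (version and scaling target: not given in sources used here). Genotypes and replicate numbers came from the sample titles. That arrays of a genotype are separate pools of animals rests on the methods. After 64 control probe sets were removed, 45037 remained, of which 34945 carried 1 gene symbol in the platform annotation, 932 carried several and 9160 carried none. All 70 member probe sets matched a GRCm38.p6 symbol. Signals under 1 (172 values) were set to 1 and log2 signals were fitted with limma 3.58.1 (R 4.3.3; lmFit, eBayes with trend), two-sided, with Benjamini-Hochberg adjustment over all 45037 probe sets. The test was also run on simulated data, with changes added to probe sets of a mean above 300.0. It found 34% of log2 changes of 1 and 77% of log2 changes of 2 (100 each). A member that did not pass may therefore still have changed. The number of arrays limits the precision. Alternatives were other scalings, floors of 16 and 64, a minimum mean signal of 300.0, no trend, array weights, the replicate block, a paired t-test named in the methods, Xist as a covariate, and arrays left out. By rule the text names every Mmp2 probe set, each member that passed, all member genes above background and, in each pathway list, the genes with the 5 smallest p-values. Further genes were chosen after their values were seen. Members and lists were chosen with earlier results of these data known. Promoters came from RefSeq. Proteins were not analysed here.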

Additional observations from a re-analysis of the deposited data

How the results depend on the processing

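Of the members 4 probe sets passed. There were 2 with median centring, 1 and 2 with signals floored at 16 and 64, 0 without limma's trend (12 at an unadjusted p under 0.05), 0 with Xist as a covariate (6 unadjusted), 11 with array weights (9 higher, 2 lower), and 7 without Slc26a4+/+ replicates 2 and 3, where the lone Slc26a4+/+ array is assumed to vary like the others. Leaving out 1 array gave 1 to 6, with 1 without Slc26a4-/- replicate 1 or 3 and 2 without Slc26a4-/- replicate 2. The paired t-test of the methods, run here on arrays paired by replicate number, gave 9 members unadjusted (8 higher, 1 lower) and 0 adjusted. The study itself judged its arrays by ratios above 1.3 and Present calls. Of all probe sets 778 passed (535 higher), against 448 with median centring (359 higher), 456 and 445 with the floors, 114 with no trend, 4084 with array weights, 27 with Xist, 1304 without Slc26a4+/+ replicates 2 and 3, and 219 to 1714 with 1 array left out, the highest without Slc26a4+/+ replicate 1. The same paired t-test gave 3980 unadjusted and 0 adjusted. By gene 2 members passed, against 4 when log2 signals were averaged over a gene (Adamts1, Mmp14, Mmp2 and Timp1) and 22 by an average ratio above 1.3 either way (13 higher, 9 lower). That ratio was used without the study's Present calls and so covered genes below background too. It took in 5 of the 9 member genes above background and 37.7% of all genes. Protease activation and inhibition genes, 6 of which passed, numbered 3 with median centring, 1 with no trend, 0 with Xist and 2 to 7 with 1 array left out. Matrix genes, 3 of which passed, numbered 0 with no trend, 0 with Xist and 1 to 5 with 1 array left out. ADAM and ADAMTS-like genes numbered 0 to 1, with 1 without Slc26a4+/+ replicate 1. The cause was not tested.

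Replicate numbers are shared by the genotypes, and deviations of same-numbered arrays correlated at 0.094, 0.027 and 0.029. Those of differently numbered arrays correlated at -0.096 to 0.07. With 3 arrays for each genotype, these values cannot decide whether same-numbered arrays share more than a number. The replicate block gave 5 members (Timp1 in addition), 832 of all probe sets, 5 protease activation and inhibition genes, 5 matrix genes and 0 ADAM and ADAMTS-like genes.

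Over 18 alternatives Timp2 1460287_at passed in 15, Adamts1 in 10, Mmp14 1448383_at in 9 and Mmp2 1416136_at in 9. These 4 were higher in Slc26a4-/- in all 18. Their arrays did not overlap between the genotypes, so leaving out arrays, setting floors or using another test could not turn their sign. The median log2 fold change of all probe sets lay between -0.14 and 0.04.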
